A study of Mus musculus with 32 samples.

Results

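High endothelial venules are the post-capillary vessels through which lymphocytes leave the blood and enter lymph nodes, and addressins are the molecules on their walls that passing lymphocytes bind. The 7 genes described here, Glycam1, Madcam1, Fut7, Chst4, Chst2, Icam1 and Vcam1, were taken by name. All probe sets that the array's annotation table gives to those symbols were used, which are 11 of 45037 probe sets and 7 of 18193 named genes. Chst2 and Vcam1 had 3 probe sets each and the other genes had 1 each. The study measured 4 tissues from female C57BL/6 mice aged 12 weeks. The mice were CD30L transgenic (CD2-CD30L, made to overexpress the TNF family ligand CD30L in T cells at all times) or littermates without the transgene, the wild type group. Thymus, spleen, mesenteric lymph node (MLN) and peripheral lymph node (PLN) were taken from 4 mice of each genotype, which gave 32 Affymetrix arrays, each of whole tissue from 1 mouse.

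Lymphocyte entry begins with L-selectin on the lymphocyte, which binds sulphated and fucosylated sugars carried on mucin-like proteins of the venule wall. Glycam1 encodes such a carrier, a secreted mucin known from lymph node venules and also from milk. Madcam1 encodes the mucosal addressin, which binds the integrin α4β7 and marks venules of mesenteric nodes and Peyer's patches and, in spleen, the sinus lining of the marginal zone. Fut7 encodes the fucosyltransferase, and Chst4 and Chst2 the sulphotransferases, that build the sugar epitope. Icam1 and Vcam1 encode immunoglobulin-type ligands of the integrins LFA-1 and α4β1, which hold the lymphocyte after it has slowed down. Their expression is shared with other endothelial cells, stroma and leukocytes. The mouse Madcam1 promoter is known for neighbouring NF-kB sites, and NF-kB is a pathway that CD30 and other TNF receptors activate.

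Because Madcam1 and Glycam1 are the members whose values differ most between tissues, the 250 bases before their transcription starts are shown, 5′ to 3′ on the gene's strand, as RefSeq gives them for the build GRCm38.p6. The Madcam1 stretch lies at chr10:79664309-79664558 on the plus strand and the Glycam1 stretch at chr15:103565082-103565331 on the minus strand. Capitals mark matches to the kappaB consensus, the recognition sequence of NF-kB, searched on both strands.
Madcam1: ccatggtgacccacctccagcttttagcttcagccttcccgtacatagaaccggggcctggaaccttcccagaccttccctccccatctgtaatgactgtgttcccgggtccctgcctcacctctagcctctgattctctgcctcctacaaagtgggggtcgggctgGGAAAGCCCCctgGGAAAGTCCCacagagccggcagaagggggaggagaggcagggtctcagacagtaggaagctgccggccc
Glycam1: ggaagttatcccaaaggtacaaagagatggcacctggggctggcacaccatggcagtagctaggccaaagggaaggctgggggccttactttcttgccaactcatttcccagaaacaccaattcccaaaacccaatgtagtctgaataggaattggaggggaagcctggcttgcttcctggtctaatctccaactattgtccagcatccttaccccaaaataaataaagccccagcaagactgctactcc
The Madcam1 stretch held 2 matches, which do not overlap, at positions -83 to -74 and -70 to -61 from the start, both read from the opposite strand. The stretch of Glycam1 held none, and the same search found none for the other members with a promoter in the table. Of the 7 members 6 had one. Among all 32851 promoter stretches of the same length in the table, 2382 (7.25%) held at least 1 match, so a match is a description of these letters and not a measured binding site.

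Levels are given as log2 of the deposited intensity plus 16 after quantile normalization. A value of 4.00 therefore stands for an intensity listed at or below 0. Levels and tissue differences use values normalized over all 32 arrays, and comparisons of genotypes use values normalized within a tissue. Summed intensities of gene lists are of deposited values, which are not normalized between arrays. A probe set was tested where its mean lay above the 40th percentile. A difference was called where limma's Benjamini-Hochberg adjusted p over all probe sets tested was under 0.05. These were 27022 for each comparison of genotypes or tissues. For tests of whether the transgenic effect varied between tissues they were 24636 to 26148, depending on the pair. Tissues were compared within mice, and all tests were two-sided. The labels number the mice, so each array of a group is a separate animal. Levels of different probe sets on such an array cannot be set against each other, so each gene is compared only with itself. In whole tissue, fewer cells of a type and less RNA per cell cannot be told apart, which holds for every difference below.

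Glycam1 was present in lymph nodes and was listed at or below 0 elsewhere. All 4 transgenic and all 4 wild type thymuses had negative deposited intensities, -44.2 to -14.2 in transgenic and -41.5 to -22.7 in wild type mice. The spleens ranged from -43.1 to -28.2 in transgenic and from -40.4 to -29.6 in wild type mice. In MLN the deposited intensities were 7766 to 10335 in transgenic and 6707 to 9822 in wild type mice, and in PLN they were 10003 to 12004 in transgenic and 8347 to 11489 in wild type mice. In PLN the probe set ranked between 14 and 20 from the top of the array in transgenic and between 13 and 41 in wild type mice. Whether a signal this near the top still rises in proportion to the RNA was not tested. The probe set passed the filter only through the nodes, so its tests against spleen and thymus had to give a difference. No fold or p is given for them, since the size depends on the constant added before the logarithm.

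Between both kinds of lymph node Glycam1 had a small difference that did not pass the test. In MLN the 4 transgenic mice had 12.89, 12.97, 13.06 and 13.20 and the 4 wild type mice 13.03, 12.96, 13.04 and 13.05, all in log2 units. In PLN the transgenic mice had 13.26, 13.26, 13.28 and 13.24 and the wild type mice 13.28, 13.28, 13.14 and 13.17. Every MLN was thus below the PLN of the same mouse. The mean difference of MLN minus PLN was -0.23 ± 0.09 in transgenic and -0.19 ± 0.09 in wild type mice (log2, SE), and neither was called (limma adjusted p 0.388 and 0.263). With a common median in place of quantile normalization the transgenic value was -0.01. Milk protein genes served as a check on mammary tissue near the nodes, since Glycam1 is also a milk gene. Their summed intensity over 7 genes ran from 52.0 to 644 over all arrays, and in PLN it was 156 to 246 in transgenic and 86.9 to 285 in wild type mice, with Lalba at 0 in every PLN. Their part in the Glycam1 values was not tested.

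Madcam1 was the member with the clearest order of tissues. In thymus the transgenic mice had 6.40, 6.25, 6.17 and 6.13 and the wild type mice 5.80, 5.92, 5.92 and 5.94. In spleen the transgenic mice had 9.03, 8.93, 9.44 and 9.43 and the wild type mice 8.40, 8.54, 8.20 and 8.24. These are the lowest level and a middle level of the gene. In MLN the transgenic mice had 10.39, 10.42, 10.50 and 10.54 and the wild type mice 10.60, 10.20, 10.92 and 10.83. In PLN the values were 8.11, 7.94, 8.21 and 8.01 in transgenic and 8.48, 8.08, 8.72 and 8.65 in wild type mice. All 8 MLN were above every other tissue of the series.

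In tests within mice, Madcam1 was 5.27-fold higher in MLN than in PLN of transgenic mice (limma adjusted p 7.63e-06) and 4.45-fold higher in wild type mice (1.86e-05). With a variance trend and robust moderation both calls were lost (adjusted p 0.161 and 0.0685) at the same differences of 2.40 in transgenic and 2.16 log2 units in wild type mice. With plain moderation it was the one member higher in MLN than in PLN by the test. Thymus minus PLN was -1.83 ± 0.12 log2 units in transgenic and -2.59 ± 0.12 in wild type mice (limma adjusted p 5.03e-06 and 5.48e-07). In transgenic mice the spleen was 2.20-fold above PLN (limma adjusted p 0.00216), whereas in wild type mice the mean difference of spleen minus PLN was -0.14 ± 0.17 and was not called (0.552). The order was therefore MLN, spleen, PLN and thymus in transgenic mice, with each step called. In wild type mice spleen and PLN were neighbours that did not differ beyond their spread.

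**Figure D1:**
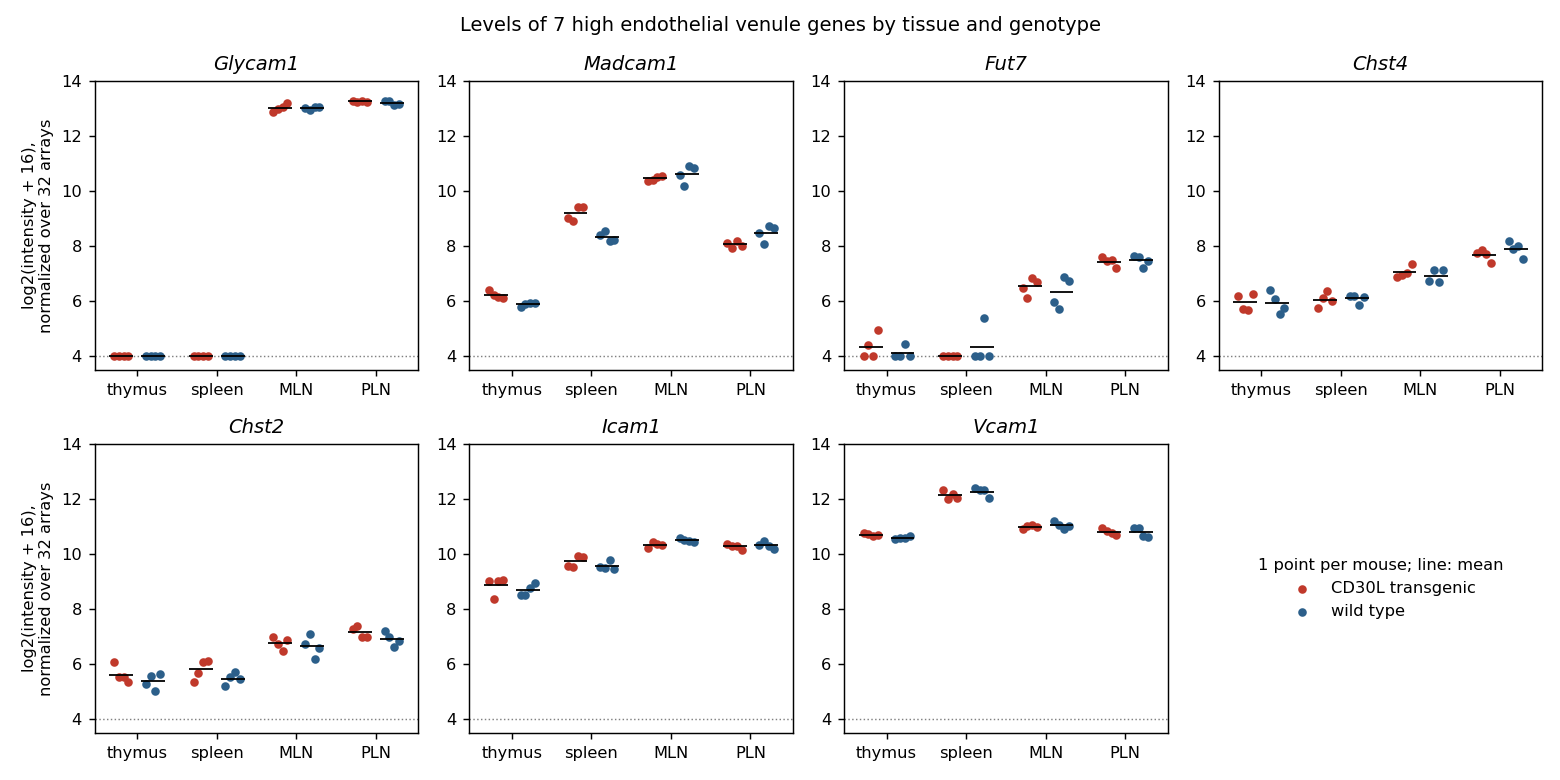
Level of each gene (its probe set with the highest mean) in thymus, spleen, MLN and PLN, as log2(intensity + 16) after normalization over 32 arrays, with 1 point per mouse and a line at the mean of 4; the dotted line at 4.00 marks intensities at or below 0. Glycam1 is near the top of the axis in lymph nodes and on the dotted line in all thymuses and spleens, Madcam1 is highest in MLN, and Vcam1 is highest in spleen.

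Of the 3 enzymes of the sugar epitope, Chst4 and Chst2 were higher in PLN than in spleen and thymus by the test. Fut7, the fucosyltransferase, had deposited intensities of 49.6 to 79.1 in MLN of transgenic and 22.3 to 92.4 in MLN of wild type mice, and in PLN of 145 to 219 in transgenic and 117 to 219 in wild type mice. In spleen it was listed at or below 0 in 4 of 4 transgenic and 3 of 4 wild type mice, and in thymus in 2 of 4 transgenic and 3 of 4 wild type mice. It passed the filter only through PLN, so no fold or p is given against spleen or thymus, as for Glycam1. In MLN Fut7 had 6.47, 6.13, 6.85 and 6.71 in transgenic and 5.98, 5.74, 6.87 and 6.76 in wild type mice. In PLN it had 7.62, 7.46, 7.49 and 7.21 in transgenic and 7.65, 7.60, 7.23 and 7.47 in wild type mice, so that each mouse had the lower value in MLN. The mean of MLN minus PLN was -0.90 ± 0.26 in transgenic and -1.15 ± 0.26 in wild type mice and was not called (limma adjusted p 0.220 and 0.0609).

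Chst4, the sulphotransferase regarded as most restricted to these venules, had its lowest levels in thymus and spleen and its highest in PLN. In MLN it had 6.87, 6.96, 7.01 and 7.35 in transgenic and 6.75, 7.13, 6.71 and 7.13 in wild type mice. In PLN it had 7.74, 7.87, 7.71 and 7.41 in transgenic and 8.21, 7.92, 8.02 and 7.53 in wild type mice. MLN was below PLN in all 8 mice. The mean of MLN minus PLN was -0.63 ± 0.20 in transgenic mice, which was not called (limma adjusted p 0.266), and -0.99 ± 0.20 in wild type mice, which was (0.0410, or 1.98-fold lower). The wild type call was lost without transgenic mouse 2 or 3 or without wild type mouse 1, 2 or 3, with adjusted p between 0.0684 and 0.148. Spleen minus PLN was -1.62 ± 0.16 in transgenic and -1.81 ± 0.16 in wild type mice, and thymus minus PLN was -1.72 ± 0.18 in transgenic and -1.97 ± 0.18 in wild type mice, all called. Spleen and thymus did not differ beyond their spread, with means of thymus minus spleen of -0.10 ± 0.19 in transgenic and -0.17 ± 0.19 in wild type mice.

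Chst2, a sulphotransferase with a wider distribution, was read by its probe set 1422758_at. It had 6.99, 6.72, 6.47 and 6.86 in MLN of transgenic and 6.72, 7.08, 6.20 and 6.59 in MLN of wild type mice. In PLN it had 7.27, 7.37, 7.0 and 6.97 in transgenic and 7.21, 6.97, 6.64 and 6.84 in wild type mice. These values overlapped between the nodes. Within mice, MLN was above PLN in 0 of 4 transgenic and 1 of 4 wild type mice. The mean of MLN minus PLN was -0.39 ± 0.13 in transgenic and -0.27 ± 0.13 in wild type mice, and neither genotype passed the test (limma adjusted p 0.287 and 0.290). Spleen minus PLN was -1.35 ± 0.22 in transgenic and -1.44 ± 0.22 in wild type mice, and thymus minus PLN was -1.54 ± 0.15 in each, all called. The other probe sets of Chst2 carried little signal and passed no filter. 1442904_at was listed at or below 0 on 25 of 32 arrays and 1460070_at on 20. Every spleen and thymus was among those 20. In PLN 1460070_at read 5.60, 4.65, 5.06 and 4.84 in transgenic and 4.39, 4.00, 4.81 and 4.39 in wild type mice. Being under the filter, it was not tested with limma, and an exact permutation test between genotypes gave 0.0571.

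Icam1, the ligand of LFA-1, was above the floor on every array and lowest in thymus. It had 9.02, 8.37, 9.03 and 9.05 in thymus of transgenic and 8.52, 8.52, 8.76 and 8.93 in thymus of wild type mice. In spleen it had 9.57, 9.54, 9.92 and 9.88 in transgenic and 9.52, 9.50, 9.76 and 9.45 in wild type mice. Every value of these organs lay below every node. In MLN the transgenic mice had 10.22, 10.43, 10.37 and 10.33 and the wild type mice 10.57, 10.51, 10.47 and 10.43. In PLN the transgenic mice had 10.37, 10.30, 10.30 and 10.12 and the wild type mice 10.33, 10.48, 10.28 and 10.17. Spleen minus PLN was -0.55 ± 0.13 in transgenic and -0.76 ± 0.13 in wild type mice (limma adjusted p 0.02 and 0.00250). The transgenic call was lost without transgenic mouse 1 or 2 (adjusted p 0.0970 and 0.0943). Thymus minus PLN was -1.41 ± 0.16 in transgenic and -1.63 ± 0.16 in wild type mice, and thymus minus spleen was -0.86 ± 0.13 in transgenic and -0.88 ± 0.13 in wild type mice, all called. MLN minus PLN was 0.06 ± 0.09 in transgenic and 0.18 ± 0.09 in wild type mice, and neither was called (limma adjusted p 0.872 and 0.305). MLN was above PLN in 3 of 4 transgenic and 4 of 4 wild type mice.

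Vcam1, the ligand of α4β1, ran the other way by its brightest probe set, 1448162_at, and was highest in spleen. It had 12.33, 11.98, 12.18 and 12.04 in spleens of transgenic and 12.38, 12.33, 12.33 and 12.02 in spleens of wild type mice. In PLN it had 10.96, 10.85, 10.77 and 10.67 in transgenic and 10.95, 10.95, 10.63 and 10.62 in wild type mice. Spleen was 2.50-fold above PLN in transgenic and 2.78-fold above PLN in wild type mice (limma adjusted p 5.49e-05 and 2.05e-05). No spleen overlapped with a node or a thymus. Between thymus and PLN the differences were -0.11 ± 0.10 in transgenic and -0.20 ± 0.10 in wild type mice and were not called (limma adjusted p 0.399 and 0.114), while thymus minus MLN was -0.28 ± 0.09 in transgenic and -0.46 ± 0.09 in wild type mice and was called (0.0262 and 0.00241). On the deposited scale neither of these MLN calls held (adjusted p 0.518 and 0.371), and the transgenic one was lost without transgenic mouse 2, 3 or 4 (0.0605, 0.106 and 0.0804). With a common median the wild type thymus minus PLN was -0.41 and was called (0.0114).

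The 3 probe sets of Vcam1 did not give the same size. For spleen minus PLN, 1415989_at gave 0.99 ± 0.35 in transgenic mice, which was not called (limma adjusted p 0.0803), and 1.78 ± 0.35 in wild type mice, which was (0.00479). 1451314_a_at gave 0.21 ± 0.20 in transgenic mice (limma adjusted p 0.511) and 0.74 ± 0.20 in wild type mice (0.0230). All 3 were called in wild type mice and 1 in transgenic mice. The call of 1451314_a_at was lost without wild type mouse 1, 3 or 4 (adjusted p 0.0661 to 0.0823), and 1415989_at passed in transgenic mice without wild type mouse 3 (0.0396). The spread between mice was wider for 1415989_at, with SDs of 0.46 among transgenic and 0.53 among wild type spleens, than for 1448162_at, with 0.16 and 0.17 in the same groups. For spleen minus MLN only 1448162_at was called. There 1415989_at gave 0.97 ± 0.33 in transgenic and 0.87 ± 0.33 in wild type mice (limma adjusted p 0.0686 and 0.0780). The third, 1451314_a_at, gave -0.02 ± 0.29 in transgenic and 0.32 ± 0.29 in wild type mice (limma adjusted p 0.978 and 0.443). Which transcripts each probe set reads was not looked up.

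**Figure D2:**
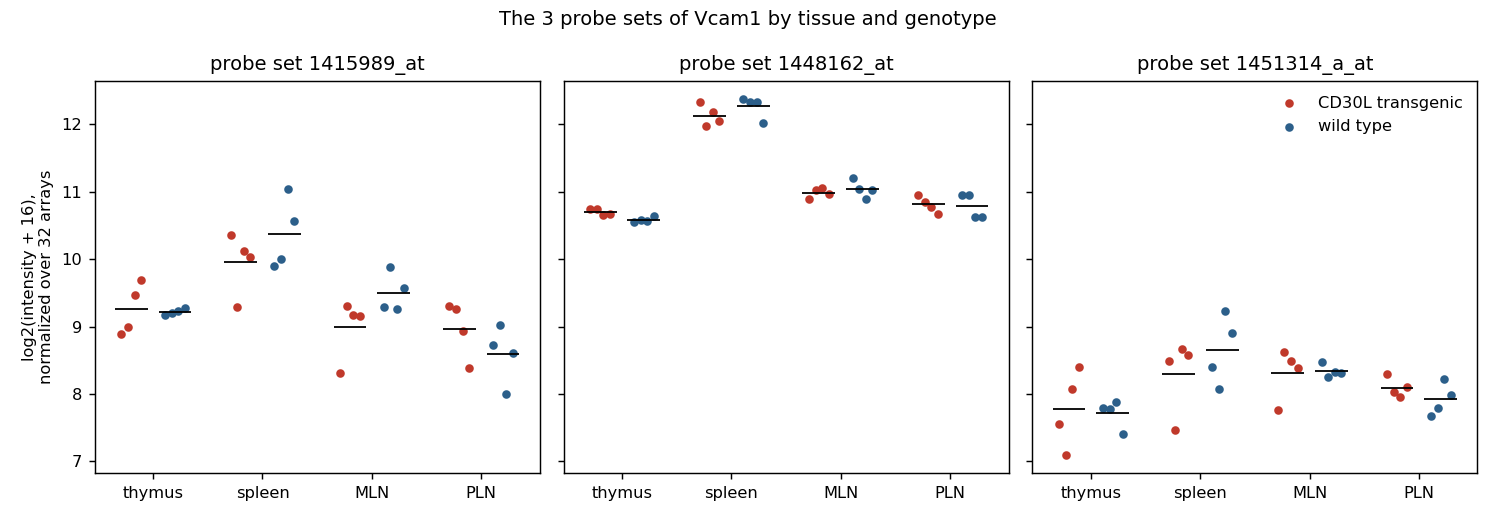
The 3 probe sets of Vcam1 in thymus, spleen, MLN and PLN, as log2(intensity + 16) after normalization over 32 arrays, with 1 point per mouse and a line at the mean of 4. All 3 have their highest mean in wild type spleen, and among spleens 1448162_at scatters least between mice.

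The calls are counted here as a description. Glycam1 is in the counts of a node against spleen or thymus, and Fut7 in those against PLN, but both passed the filter only through the nodes and had to differ there. Between MLN and PLN 1 of 9 tested probe sets was called in transgenic mice, higher in MLN, where 0.696% of all probe sets were called and 0.463% were higher. In wild type mice 1 was higher and 1 lower in MLN, against 2.48% of all called, 1.45% higher and 1.02% lower. For spleen and PLN 7 of 9 were called in transgenic mice (19% of all probe sets) and 8 of 9 in wild type mice (34.2%). Lower in spleen were 5 in each genotype (10.7% and 18.8% of all), and higher were 2 and 3 (8.28% and 15.4%). For spleen and MLN 6 of 8 were called in each genotype, against 21.7% in transgenic and 29.5% in wild type mice, of which 5 were lower in spleen (11.1% and 15.2%) and 1 higher (10.5% and 14.3%). Every member call of the thymus was lower than in the other tissue. Against PLN these were 6 of 9 in each genotype (23.3% and 28.3% of all probe sets lower, 48.7% and 58.3% called), and against MLN 6 of 8 and 7 of 8 (23.2% and 25.3% lower, 50.5% and 55.1% called). Against spleen they were 4 of 7 and 5 of 7 (21.6% and 23.1% lower, 47.2% and 50.6% called). No test was made of the members as a set.

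**Figure D3:**
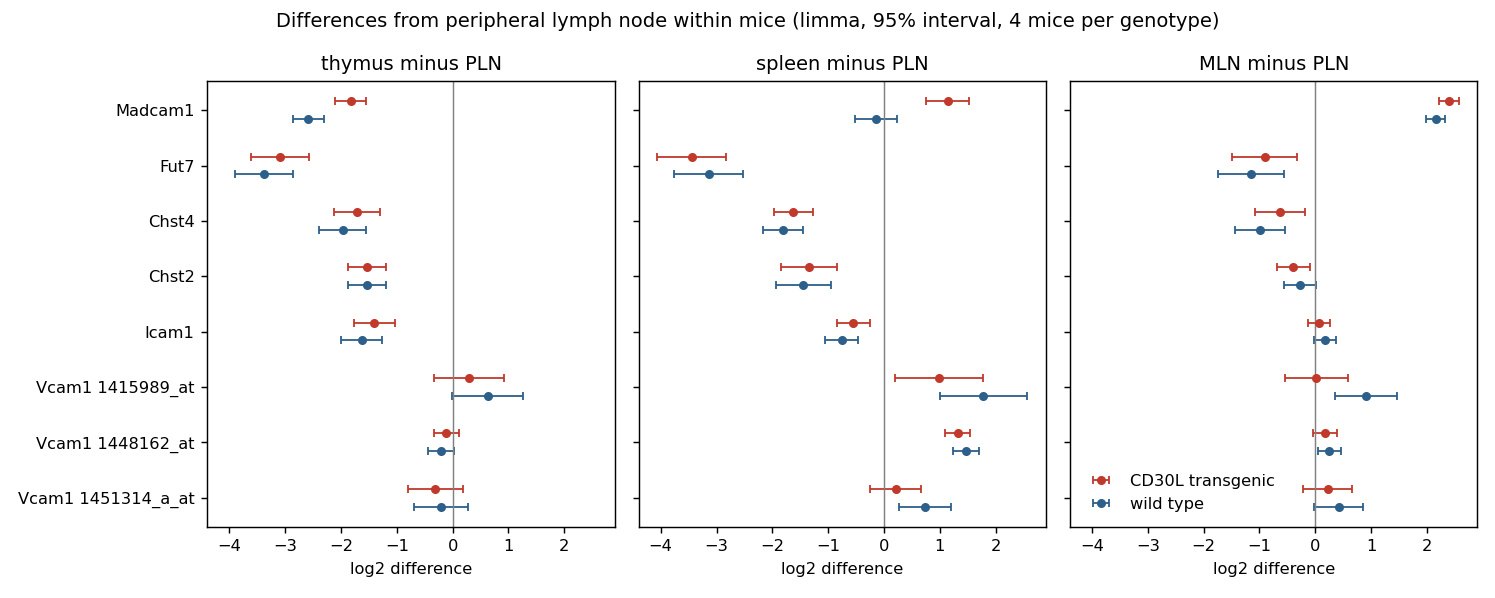
Difference of thymus, spleen and MLN from PLN within mice, as log2 with limma's 95% interval over 4 mice per genotype, for the tested probe sets other than that of Glycam1, whose thymus and spleen values are all at or below 0. The Fut7 values against thymus and spleen depend on the added constant. Madcam1 lies far to the right of 0 in MLN and to the left in thymus, and its transgenic and wild type points stand apart for spleen minus PLN, at 1.14 and -0.14.

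Other genes of the same pathway gave a background for these tissue patterns. Over all probe sets, 10.7% in transgenic and 18.8% in wild type mice were lower in spleen than in PLN, and 8.28% and 15.4% higher. For thymus against PLN 23.3% and 28.3% were lower, and 25.4% and 30% higher. Between MLN and PLN of wild type mice 2.48% were called. In transgenic mice 8 of 16 tested genes that make or carry the sugar epitope were lower in spleen than in PLN and 0 were higher, with a median of -0.367 against -0.030 over all probe sets. In wild type mice 9 of 16 were lower and 0 higher, with a median of -0.516 against -0.052. Among those called in wild type mice were Cd34, a sialomucin that carries the epitope (-1.92 ± 0.13), Emcn, another endothelial sialomucin (-1.82 ± 0.17), Cd300lg, a venule mucin (-2.33 ± 0.25), and Papss2, which makes the sulphate donor (-1.45 ± 0.11). Between MLN and PLN of wild type mice Cd34 was the only called gene of these 16, at -0.53 ± 0.10. The list of other vascular adhesion genes also held genes of other kinds, such as the enzyme gene Ch25h and the chemokine receptor gene Ackr1. Of its 10 tested genes 6 in transgenic and 5 in wild type mice were lower in spleen than in PLN, with none higher. The largest wild type value was that of Aoc3, the vascular adhesion protein VAP-1, at -4.05 ± 0.16. General markers of blood endothelium were also lower in spleen than in PLN for 11 of 19 genes in transgenic and 9 of 19 in wild type mice, and higher for 2 in transgenic and 3 in wild type mice. In thymus they were lower than in PLN for 18 of 18 in each genotype. Their summed intensity was 719 to 1465 in transgenic and 901 to 1223 in wild type thymuses, against 9677 to 13584 in transgenic and 7253 to 13480 in wild type PLN, and their part in the lower thymus values of the members was not tested.

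The comparison of genotypes asked whether lasting CD30L expression by T cells changes these genes. No member probe set passed the adjusted threshold in any tissue. For the transgene itself, the probe set of Tnfsf8, which encodes CD30L, was not called between genotypes, with log2 differences from -0.10 ± 0.21 in thymus to 0.07 ± 0.10 in spleen (limma adjusted p between 0.893 and 0.984). Whether its probes lie within the transgene is not stated in the labels, so it does not check the genotype. Of the 11 member probe sets, 7 were tested in thymus, 7 in spleen, 9 in MLN and 9 in PLN, and 0 were called in each. Over the array, 0.0037% of probe sets were called in thymus, 0.0111% in spleen, 0% in MLN and 0.037% in PLN, which are 1, 3, 0 and 10 probe sets. Of the 10 in PLN 9 were higher in transgenic mice (0.0333%). At an unadjusted p under 0.05 these shares were 7.26%, 8.56%, 4.71% and 8.36%, and Madcam1 was below that line in thymus, spleen and PLN.

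Madcam1 had the largest difference among the members in spleen and the smallest p in both spleen and thymus. On the scale normalized within a tissue, spleens of transgenic mice had 9.09, 9.0, 9.50 and 9.49 and spleens of wild type mice 8.46, 8.60, 8.28 and 8.31. Every transgenic spleen was above every wild type spleen. The difference was 0.86 ± 0.15 log2 units, or 1.81-fold (limma p 0.000337, adjusted p 0.379), which was rank 24 by p among the 27022 probe sets tested. An exact permutation test gave 0.0286, the smallest p that 4 against 4 mice allow. Groups that do not overlap were seen for 1 of the 7 member probe sets and for 4.88% of all tested probe sets in spleen, 2.8% with transgenic mice above and 2.08% with transgenic mice below. One limma fit over all 32 arrays, which shares the estimate of the spread between tissues, gave the same 0.86 with an adjusted p of 0.00298. That fit has no term for the mouse, so the 4 arrays of each mouse count as independent. It was the only one of the alternatives that called Madcam1. Over the alternatives the adjusted p ran from 0.00298 to 0.848.

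In thymus Madcam1 had 6.41, 6.25, 6.18 and 6.15 in transgenic and 5.82, 5.94, 5.95 and 5.96 in wild type mice. The groups again did not overlap, at the lowest level of the 4 tissues. The difference was 0.33 ± 0.09, or 1.26-fold (limma p 0.0056, adjusted p 0.589, exact permutation p 0.0286). In MLN the gene had 10.24, 10.28, 10.36 and 10.40 in transgenic and 10.46, 10.05, 10.80 and 10.70 in wild type mice, a difference of -0.18 ± 0.16 (limma adjusted p 0.972). In PLN it had 8.23, 8.06, 8.33 and 8.13 in transgenic and 8.61, 8.20, 8.87 and 8.79 in wild type mice. There 3 of 4 wild type mice lay above all transgenic mice, and the difference was -0.43 ± 0.15 (limma p 0.0203, adjusted p 0.496). The sign was thus positive in thymus and spleen and negative in both kinds of node, with none of the 4 differences called.

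Measures of RNA integrity and of other cell types are given beside the Madcam1 values. The ratio of 3' to 5' signal of Actb, a measure of RNA integrity, was 2.83 to 3.58 in spleens of mice 1 and 2 and 1.65 to 1.85 in spleens of mice 3 and 4. By genotype it was 1.68 to 3.57 in transgenic and 1.65 to 3.58 in wild type spleens. Within mice 1 and 2 the Madcam1 difference in spleen was 0.51, and within mice 3 and 4 it was 1.20. In thymus the ratio was 2.25 and 2.23 in transgenic mice 1 and 2, against 1.78 and 1.68 in wild type mice 1 and 2, and 1.34 to 1.43 in mice 3 and 4 of both genotypes. The Madcam1 difference in thymus was 0.45 within mice 1 and 2, where the transgenic ratios were above the wild type ones, and 0.21 within mice 3 and 4. With this split of the mice as a blocking term Madcam1 was not called in spleen (limma adjusted p 0.262) or thymus (0.357). The part of RNA integrity in these values was not tested. No gene of the following lists was called. In spleen 0 of 6 erythroid genes had a positive difference, and none was at 0 in a whole group. Their summed intensities, deposited and not normalized, were 6991 to 12562 in transgenic and 15919 to 20444 in wild type spleens. Their mean log2 level after normalization overlapped, at 9.25 to 10.29 in transgenic and 10.17 to 10.77 in wild type spleens. Of 8 T cell genes 7 had a positive difference, with sums of 5986 to 6617 in transgenic and 4479 to 7553 in wild type spleens. Of 19 blood endothelium genes 3 had a positive difference, with sums of 4808 to 8045 in transgenic and 5789 to 9845 in wild type spleens. In thymus 6 of 6 tested B cell genes had a positive difference, with a median of 0.809 on the log2 scale against -0.000308 over all tested, and sums of 731 to 2505 in transgenic and 610 to 857 in wild type thymuses, while Pax5 was at 0 in every transgenic thymus. The mean log2 level of 5 other lists did not overlap between genotypes in thymus, with transgenic mice above. They are named because they stood apart, and all remaining lists overlapped. Among single probe sets in thymus 4.61% stood apart, 2.54% with transgenic mice above. A list mean averages several genes, so this share holds for single probe sets only and is not a background for list means. The mean log2 level was 5.94 to 6.10 in transgenic and 5.62 to 5.86 in wild type thymuses for lymphatic endothelium. For other vascular adhesion genes it was 6.59 to 6.75 in transgenic and 6.42 to 6.52 in wild type thymuses. For follicular dendritic cells it was 6.84 to 7.29 in transgenic and 6.72 to 6.82 in wild type thymuses. None of the genes in these 3 lists was at 0 in a whole group. For red pulp and tissue macrophages it was 7.85 to 7.98 in transgenic and 7.74 to 7.83 in wild type thymuses, with Marco at 0 in the wild type group. For milk protein genes it was 5.49 to 5.81 in transgenic and 5.28 to 5.47 in wild type thymuses, with Csn1s2b and Lalba at 0 in both. In spleen 3 lists did not overlap in this measure, again with transgenic mice above, and all remaining lists overlapped. Among single probe sets in spleen 4.88% stood apart, 2.8% with transgenic mice above, which again is not a background for list means. T cell genes were at 9.38 to 9.66 in transgenic and 9.05 to 9.33 in wild type spleens. Lymphotoxin and NF-kB genes were at 8.81 to 9.0 in transgenic and 8.55 to 8.72 in wild type spleens, with Tnf at 0 in the wild type group. Skeletal muscle genes were at 5.31 to 5.44 in transgenic and 5.08 to 5.19 in wild type spleens, with Tnnc2 at 0 in both. The part of these cell types in the Madcam1 values was not tested.

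**Figure D4:**
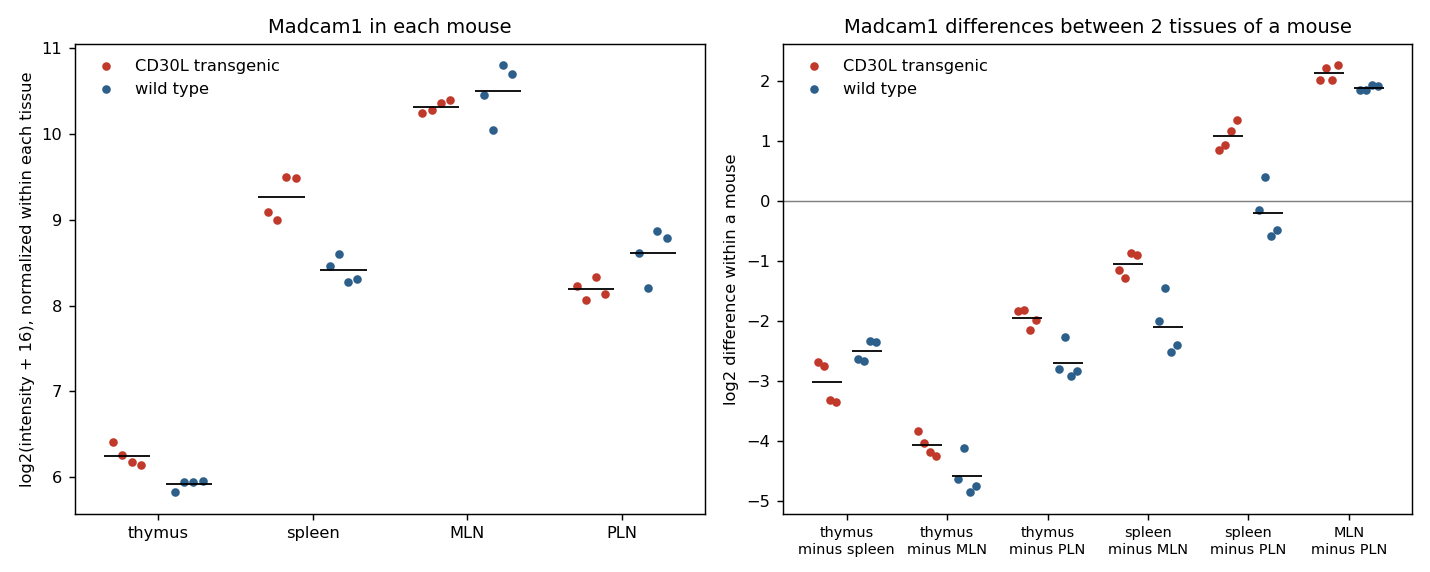
Left, Madcam1 in each mouse as log2(intensity + 16) normalized within a tissue, for thymus, spleen, MLN and PLN; right, the difference between 2 tissues of a mouse on the same scale, with a line at the mean of 4. Transgenic and wild type points do not overlap in thymus and spleen on the left, nor for spleen minus PLN on the right, where the means are 1.08 and -0.21.

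Whether the transgenic difference of a gene varied between tissues was tested on each mouse's difference of 2 tissues. For Madcam1, spleen minus PLN averaged 1.08 ± 0.23 in transgenic and -0.21 ± 0.44 in wild type mice (SD, n = 4 each). The transgenic effect in spleen minus that in PLN was thus estimated at 1.28 ± 0.24 log2 units, which was not called (limma p 0.000426, adjusted p 0.536, rank 20 of 25147). Spleen minus MLN gave 1.04 ± 0.24 (limma adjusted p 0.605), thymus minus PLN 0.76 ± 0.17 (0.338), MLN minus PLN 0.24 ± 0.11 (0.830) and thymus minus spleen -0.53 ± 0.20 (0.577). In these 5 comparisons the 4 transgenic and the 4 wild type mice did not overlap, and each exact permutation p was 0.0286. Thymus minus MLN gave 0.51 ± 0.19 with overlap (limma adjusted p 0.969, exact permutation p 0.0857). The comparisons share tissues and mice and are not independent of each other.

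Over all probe sets 0% were called for any of the 6 pairs of tissues, and 0 of the 44 member tests were. Groups did not overlap for 4.96% of tested probe sets for spleen minus PLN, 3.6% for spleen minus MLN, 6.09% for thymus minus PLN, 3.74% for MLN minus PLN, 4.55% for thymus minus spleen and 3.44% for thymus minus MLN. At an unadjusted p under 0.05 the shares were 7.42%, 6.08%, 9.81%, 5.5%, 8.43% and 5.06% for the same pairs. Among the 38 member tests other than those of Madcam1 the largest difference was 0.90 in size, that of Vcam1 1415989_at for MLN minus PLN, and the smallest adjusted p was 0.662 (limma).

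For the other members no difference between genotypes was called. Glycam1 differed by 0.01 ± 0.09 log2 units in MLN and by 0.04 ± 0.08 in PLN, with a 95% interval in PLN from -0.14 to 0.21. Fut7 differed by 0.20 ± 0.28 and -0.05 ± 0.13 in the same nodes. Both were under the filter in thymus and spleen. Chst4 gave 0.02 ± 0.21 in thymus, -0.05 ± 0.15 in spleen, 0.12 ± 0.15 in MLN and -0.24 ± 0.17 in PLN. Chst2 was positive in all 4 tissues, at 0.23 ± 0.19, 0.35 ± 0.20, 0.12 ± 0.19 and 0.25 ± 0.15 in the same order, and none was called.

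Icam1 gave 0.18 ± 0.18 in thymus, 0.17 ± 0.13 in spleen, -0.16 ± 0.08 in MLN and -0.04 ± 0.10 in PLN. In MLN the transgenic mice had 10.07, 10.29, 10.22 and 10.18 and the wild type mice 10.43, 10.36, 10.33 and 10.29. The groups met at 10.29 without overlapping in the unrounded values, as for 3.94% of all probe sets there, 2.71% with transgenic mice above and 1.23% below (limma adjusted p 0.972). With a common median in place of quantile normalization the Icam1 difference in MLN was 0.01. Vcam1 by 1448162_at gave 0.12 ± 0.07, -0.14 ± 0.13, -0.06 ± 0.09 and 0.02 ± 0.12 in thymus, spleen, MLN and PLN. In thymus its groups did not overlap, so that 2 of the 7 tested member probe sets did not overlap there, both with transgenic mice above. Over the array this was 4.61% of all, 2.54% above and 2.07% below. By 1415989_at the differences were 0.04 ± 0.17, -0.42 ± 0.30, -0.51 ± 0.24 and 0.38 ± 0.26, and by 1451314_a_at 0.07 ± 0.26, -0.35 ± 0.32, -0.03 ± 0.18 and 0.18 ± 0.14. In PLN 0 of 9 member probe sets had groups apart, against 5.35% of all, 2.43% with transgenic mice above and 2.92% below.

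**Figure D5:**
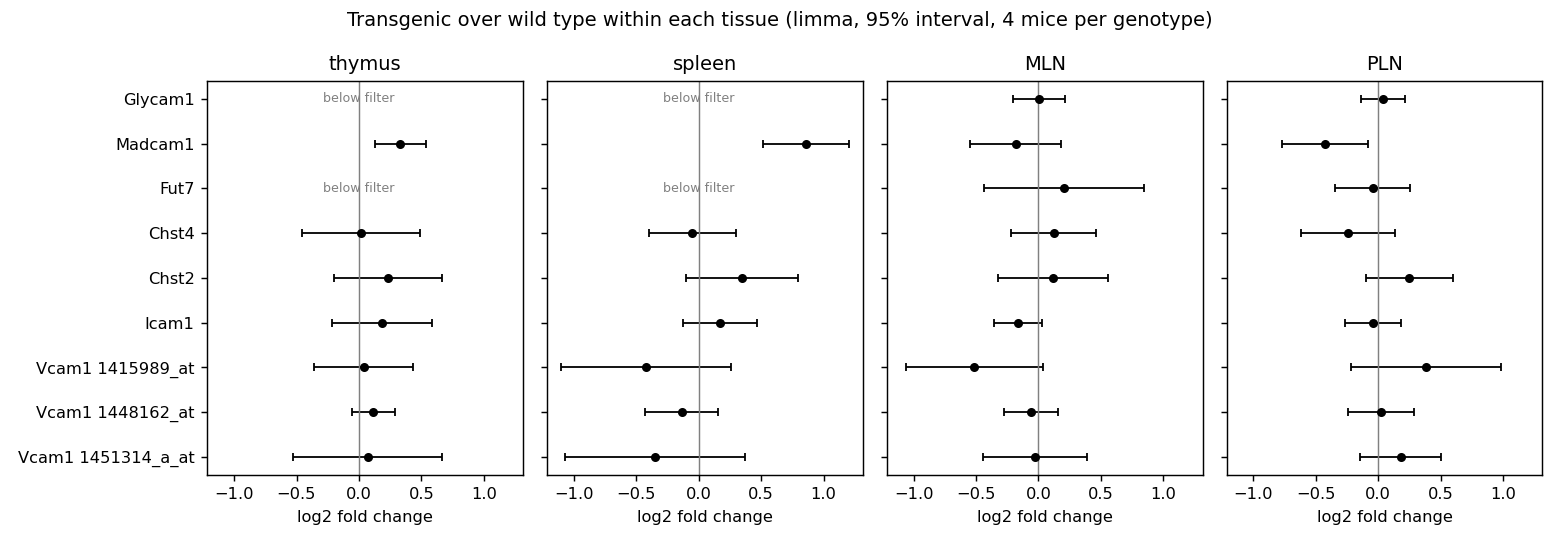
Transgenic over wild type as log2 fold change within thymus, spleen, MLN and PLN, with limma's 95% interval, for each tested probe set; probe sets under the filter are marked. Madcam1 has its largest value in spleen, at 0.86, and the intervals of all probe sets other than that of Madcam1 include 0.

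None of the related genes described here was called between genotypes. Of the genes that make or carry the sugar epitope, 10 of 14 tested were positive in thymus, 7 of 15 in spleen, 5 of 16 in MLN and 4 of 16 in PLN, with medians of 0.047, -0.018, -0.058 and -0.086, against -0.000308, 0.00544, 0.00769 and -0.00965 over all tested probe sets. The smallest p in spleen was that of Gmds, which encodes an enzyme on the route to the fucose donor GDP-fucose (0.73 ± 0.11, limma adjusted p 0.321). Among other vascular adhesion genes in spleen, Ch25h, an enzyme of oxysterol synthesis, gave 0.79 ± 0.21 (adjusted p 0.535) and Ackr1, the venular chemokine receptor, -0.95 ± 0.27 (0.540). Lymphotoxin and NF-kB genes had medians of 0.343 in thymus, where 7 of 9 were positive, and 0.180 in spleen, where 10 of 11 were, against -0.041 in MLN and -0.025 in PLN, where 4 of 11 were in each. In thymus Ltb, which encodes lymphotoxin β, gave 0.57 ± 0.14 (limma adjusted p 0.515), Tnfrsf1b 0.39 ± 0.09 (0.537) and Relb, a subunit of NF-kB, 0.47 ± 0.12 (0.573). In spleen Ltb gave 0.31 ± 0.13 and Lta 0.52 ± 0.23 (adjusted p 0.573 and 0.575). Of the 9 lymphocyte counter-receptor genes, 2 in thymus and 7 in spleen were positive. Among them Itgb7, which encodes the β7 chain of the integrin that binds MAdCAM-1, gave 0.45 ± 0.15 in thymus and 0.26 ± 0.11 in spleen (limma adjusted p 0.650 and 0.575).

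Likeness of pattern was measured as Pearson's r over the 32 arrays, in which the 4 tissues form separate clusters, so it describes shared tissue patterns and carries no p. Glycam1 was at the floor of 4.00 in every spleen and thymus, and Fut7 was at it on 12 arrays. Of the genes named below, Tbx1 (means 4.00 and 4.01) and Hoxd9 (4.00 in both) were at or near it in spleen and thymus. An r between such genes mainly sets nodes against the floor. Among the members, Glycam1 ran with Fut7 (0.942), Chst2 (0.909), Chst4 (0.885) and Icam1 (0.850), less with Madcam1 (0.603) and against Vcam1 (-0.414). The genes most like Glycam1 over the array were Tbx1 (0.998), Hoxd9 (0.990) and Vtn (0.989), and those most like Madcam1 were Fn1 (0.961), Anpep (0.940) and Apol7a (0.940). For Fut7 they were Meox1 (0.961), Hoxd9 (0.957) and Cd34 (0.952). Chst4 was most like Il15 (0.937), Cd209e (0.935) and Folr2 (0.933), and Chst2 most like Itih5 (0.931), Hc (0.930) and Antxr2 (0.928). Icam1 was most like Cfb (0.986), Gusb (0.985) and Sting1 (0.982), and Vcam1 most like Car2 (0.970), Dll1 (0.970) and Tcf21 (0.969). Within the 16 node arrays, after the mean of each tissue and genotype was taken out, the member pairs ran from -0.681 for Madcam1 and Chst2 to 0.803 for Icam1 and Vcam1. Madcam1 correlated at -0.479 with Vcam1 and -0.407 with Icam1. Glycam1 correlated at 0.551 with Fut7, 0.463 with Chst4 and -0.085 with Chst2 there. The genes most like Glycam1 in that measure were Itih3 (0.921), Car2 (0.917), Ogfrl1 (0.892), Nudcd3 (0.867) and Mepce (0.855).

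The arrays had no read depth, so the number of mice limits the precision. Their trimmed mean intensity ran from 106 to 273. Correlations between arrays of a tissue were 0.953 to 0.984 in thymus, 0.954 to 0.984 in spleen, 0.939 to 0.985 in MLN and 0.968 to 0.983 in PLN, with no identical pair. The thymus labels matched their markers, with summed intensities of 7 thymocyte genes from 19968 to 26480 in thymuses and at most 4157 elsewhere. Those of 6 erythroid genes ran from 6991 to 20444 in spleens and were at most 468 elsewhere. The labels of MLN and PLN were not checked against each other by a marker list. Transcripts of 2 other tissues varied between nodes. The summed intensity of 9 pancreas genes in MLN ran from 44.1 to 58370 in transgenic and from -17.6 to 78876 in wild type mice, and that of 12 muscle genes in PLN from 312 to 2331 in transgenic and from 334 to 15473 in wild type mice. Without the 3 MLN or the 3 PLN arrays highest in these transcripts, 0 member probe sets were called between genotypes in either node. This was also 0 with all arrays, so leaving arrays out had no call to lose and cannot show the part of these transcripts. Their part in the differences between MLN and PLN was not tested.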

How the data were processed

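Total RNA, 5 µg per sample, was labelled with biotin and hybridised, per the labels' protocols. The deposited table holds 1 intensity per probe set and array on a linear scale, for which the algorithm and scaling were not given in the sources used here. Of its values 14.9% to 18.4% per array are negative. All 32 value columns carried a sample name, with 0 unmapped. Of 45101 probe sets 64 controls were left out, and 34945 had 1 symbol in the annotation table. Negative intensities were set to 0, 16 was added, log2 was taken and arrays were quantile normalized. Fits used limma 3.58.1 in R 4.3.3, checked on simulated data, with intervals at 95%. For interactions a probe set had to pass the filter in both tissues. A gene with several probe sets is represented by the one with the highest mean. The members and the gene lists were chosen with earlier results of these data known. Named genes are all members, the 3 genes most like each (for Glycam1 also 5 within nodes), and from a described list those that passed or up to 3 with the smallest p. Alternatives covered the pseudocount, normalization, filter, variance moderation, blocks, array weights, a joint fit, left-out arrays and an exact permutation test.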

Additional observations from a re-analysis of the deposited data

Results flagged for a closer look

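In 5 of the 64 groups of 4 arrays checked, 1 mouse stood apart from the other members of its group, with a gap over the group's range above Dixon's limit for 4 values. Chance gives about 1 such group in 20. Icam1 in thymus was 8.32 in transgenic mouse 2 and 8.97 to 9.0 in the other transgenic mice (log2, normalized within the tissue). Vcam1 by 1415989_at in MLN was 8.16 in transgenic mouse 1 and 9.0 to 9.14 in the other transgenic mice. That array had an Actb 3' to 5' ratio of 3.10, against 1.59 to 1.75 in the other MLN arrays. Vcam1 by 1451314_a_at in spleen was 7.57 in transgenic mouse 2 and 8.55 to 8.74 in the others. That array had an Actb ratio of 3.57, within the 2.83 to 3.58 of mice 1 and 2 in spleen. The part of RNA integrity in these values was not tested. Madcam1 in thymus was 5.82 in wild type mouse 1 and 5.94 to 5.96 in the other wild type mice, the lowest of its group. Vcam1 by 1448162_at in spleen was 12.06 in wild type mouse 4 and 12.38 to 12.43 in the others.

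For Madcam1, 5 of the 6 comparisons of the transgenic effect between tissues had an exact permutation p of 0.0286, the smallest that 4 against 4 mice allow, while limma's adjusted p called none of them. The 6 comparisons share tissues and mice and come from 1 probe set. Over all probe sets the mice of both genotypes did not overlap in 3.44% to 6.09% of tests, depending on the pair of tissues. The difference of effects was 1.28 for spleen minus PLN, 1.04 for spleen minus MLN, 0.76 for thymus minus PLN, 0.24 for MLN minus PLN and -0.53 for thymus minus spleen. The exact p is not adjusted over the 44 member tests.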

How the results depend on the processing

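Of the member values, 634 of 651 for genotype, 1507 of 1576 for tissue and 718 of 731 for the difference of effects kept their side of the threshold and moved by less than the spread between mice under the alternatives, or stayed called with the same sign. No called value turned its sign, but uncalled values did so 39, 18 and 40 times in the same families. Several alternatives, such as the filter, the moderation and the exact permutation test, leave the difference itself unchanged and can move only its p. Leaving out a transgenic mouse also leaves a tissue difference of wild type mice unchanged, and the reverse. The counts of kept values are therefore high in part by construction and do not measure robustness. With 1 fit over all 32 arrays, which has no term for the mouse, 1 member was called between genotypes in spleen in place of 0, Madcam1. With a variance trend and robust moderation 0 members were called between MLN and PLN in either genotype, in place of 1 in transgenic and 2 in wild type mice (Madcam1 adjusted p 0.161 and 0.0685, limma, at the same 2.40 and 2.16 log2 units). With a pseudocount of 1 or with no filter it was 1 in wild type mice, and leaving out single mice gave 1 to 3. There Chst4 had an adjusted p of 0.0548 with a pseudocount of 1 and 0.0840 with no filter, and Fut7 passed with a pseudocount of 64 (0.0365), the 60th percentile (0.0380) or no replicate block (0.0111). Vcam1 1415989_at passed between MLN and PLN of wild type mice without transgenic mouse 1 (0.0266). The transgenic over wild type difference of Madcam1 in spleen ran from 0.65 as deposited to 0.95 over the alternatives, and in thymus it was 0.19 with a pseudocount of 64. For spleen minus PLN its difference of effects ran from 0.88 to 1.49, with adjusted p from 0.0873 to 0.899. The range includes normalization over all 32 arrays, chosen after seeing the data. Over all probe sets the genotype calls ranged from 1 to 128 in PLN, 0 to 3 in MLN, 0 to 218 in spleen and 0 to 56 in thymus, highest with the joint fit except in MLN, where it was without a filter. With single mice left out they ranged from 0 to 11, 0 to 0, 0 to 2 and 0 to 2. Between MLN and PLN the calls were 188 (7 to 307) in transgenic and 669 (22 to 984) in wild type mice, between thymus and MLN 13654 and 14885 against 8241 and 8923 as deposited. With single mice left out they went down to 57 and 190 between MLN and PLN, to 2573 for spleen and PLN in transgenic mice (5125 with all) and to 3236 and 5283 for spleen and MLN (5859 and 7980). Calls of the difference of effects, 0 for every pair, reached 10 for MLN minus PLN and 6 for thymus minus MLN as deposited, 4 for thymus minus spleen and 2 for spleen minus PLN with no filter, and 2 for thymus minus PLN with no replicate block. Mice of the 2 genotypes share numbers, and the best correlation of deviations was with the own number in 5 of 16 cases, so single numbers are not shown to pair them. Mice 1 and 2 differed from mice 3 and 4 in the Actb ratio of spleen and thymus, in both genotypes, and the labels name no batch for it. With that split as a block 0 members were called in any tissue, and over all probe sets 1 in thymus, 0 in spleen, 0 in MLN and 4 in PLN. With the mouse number as a replicate block Madcam1 in spleen kept 0.86 (limma p 0.00308, adjusted p 0.541), and no member was called. The causes of these changes were not tested. Signal at or below 0 limits Glycam1 and Fut7 in spleen and thymus.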
